A study of Homo sapiens with 34 samples.

Results

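Broad stretches of chromatin carrying H3K27me3 were described in the human neuroblastoma cell line KELLY, which carries amplified MYCN. A short hairpin RNA that targets RUNX1T1, a transcriptional co-repressor, could be switched on by doxycycline in both groups, and the cells were given either DMSO, the solvent, or doxycycline for 72 h. Chromatin immunoprecipitation followed by sequencing had been carried out for 5 histone marks in 3 libraries per mark and treatment, which gave 30 peak lists. The samples included no doxycycline-treated cells without the hairpin, so an effect of the drug and an effect of losing RUNX1T1 cannot be told apart. A domain was defined by pooling the 6 H3K27me3 peak lists, joining peaks that shared at least 1 bp, and keeping the joined regions of 50 kb or more that held a peak of all 6 lists. Of 124320 joined regions on chromosomes 1 to 22 and X, 1162 met this definition, and all regions of 50 kb or more held peaks of all 6 lists. The members were selected on the extent of H3K27me3 itself, so their width and their H3K27me3 coverage are given as a description.

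H3K27me3 is placed on histone H3 by Polycomb repressive complex 2, whose catalytic subunit is EZH2 or EZH1. The mark is read by Polycomb repressive complex 1 and is known for keeping developmental regulators silent in cells of another lineage. The same lysine can instead be acetylated (H3K27ac), a mark of active promoters and enhancers, so a single histone tail cannot carry both. CpG-rich promoters can carry H3K27me3 together with H3K4me3, the methylation found at promoters, and are then called bivalent. In neuroblastoma the identity of adrenergic cells rests on a set of transcription factors that includes HAND2 and GATA3.

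The labelled cell type was checked at the promoters of marker genes, taken as the 1 kb either side of the start site. PHOX2A, HAND2, GATA3 and ISL1, factors of the adrenergic state, had H3K4me3 and H3K27ac peaks in all 6 libraries of each mark and no H3K27me3 peak in any. So did TH and DBH, enzymes of catecholamine synthesis. PTPRC, the leukocyte marker, had no peak of the 5 marks in any library, and PECAM1, an endothelial marker, had H3K27me3 in all 6 and no H3K4me3 or H3K27ac. Of the mesenchymal markers, FN1 had H3K4me3 and H3K27ac in all 6 and no H3K27me3, SNAI2 had H3K4me3 in all 6 and no H3K27me3, and VIM had both H3K4me3 and H3K27me3 in all 6. PRRX1 had H3K27me3 in all 6, with H3K4me3 in 0 of 3 DMSO and 2 of 3 doxycycline libraries. The markers of that state were thus not uniformly without active marks. EPCAM, an epithelial marker, and CD68, a macrophage marker, had H3K27ac in all 6 and no H3K27me3. No gene of this marker list started in a domain. The promoter of RUNX1T1 carried no H3K27me3 peak, but the hairpin acts on the messenger RNA, so the lists do not check its loss.

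The 6 sequences below were taken from hg38, the build of the lists, and are shown because they are the densest CpG windows of the domains with the fullest coverage, ranked by their lowest library with at most 1 domain per chromosome. In the domains most fully covered by all lists these windows were mostly close to gene starts. Each is the 100 bp window with the most CpG outside annotated exons, on the forward strand, with CpG in capitals.
NACC2 window chr9:136095294-136095393: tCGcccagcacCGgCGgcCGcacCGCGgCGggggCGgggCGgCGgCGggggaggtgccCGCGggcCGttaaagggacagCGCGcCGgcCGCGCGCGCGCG
GABRD window chr1:2019496-2019595: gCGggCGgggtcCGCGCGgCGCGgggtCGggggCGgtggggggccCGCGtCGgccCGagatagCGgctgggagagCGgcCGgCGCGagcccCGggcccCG
USP17L12 window chr4:9222322-9222421: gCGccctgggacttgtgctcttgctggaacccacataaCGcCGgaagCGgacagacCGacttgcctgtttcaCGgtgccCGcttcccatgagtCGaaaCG
BHLHE23 window chr20:63007115-63007214: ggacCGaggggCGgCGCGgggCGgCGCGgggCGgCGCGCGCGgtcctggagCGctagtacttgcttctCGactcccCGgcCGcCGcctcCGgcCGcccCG
EN2 window chr7:155457816-155457915: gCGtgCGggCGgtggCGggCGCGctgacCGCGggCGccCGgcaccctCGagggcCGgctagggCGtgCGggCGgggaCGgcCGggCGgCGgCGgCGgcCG
ITGB2 window chr21:44932569-44932668: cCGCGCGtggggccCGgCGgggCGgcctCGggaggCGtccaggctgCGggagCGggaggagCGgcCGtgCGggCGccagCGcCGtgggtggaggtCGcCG
The first window lay 0.005 kb from the start of NACC2, a transcriptional repressor gene, in a domain of 92.4 kb that was covered to 99.7%, 98.9% and 96.6% in DMSO and 99.9%, 99.7% and 96.8% in doxycycline. It held 23 CpG, a density reached by 0.00145% of the non-overlapping 100 bp windows of the genome, which held 1.00 CpG on average. Each window shown was picked as the densest at any offset in its domain. A high count follows from that choice, so these shares only describe the windows. The GABRD window lay in an intron of this GABA receptor subunit gene and held 20 CpG. The BHLHE23 window also held 20 CpG and lay between genes, 0.08 kb from the start of this neuronal bHLH factor. The EN2 window, 0.313 kb from the start of the engrailed homeobox gene, held 22 CpG, and the ITGB2 window, 0.58 kb from the start of the leukocyte integrin gene, held 18. The exception was a domain of 62.9 kb on chromosome 4 made of tandem copies of the deubiquitinase gene USP17L, where the densest window held 9 CpG, as did 0.550% of genome windows or more. Reads in near-identical copies such as these can be placed in the wrong copy, so that domain is uncertain. All 6 windows lay under a peak of all 6 lists.

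The full set of domains was also richer in GC and CpG than the genome. GC content was 45.6% in the domains, 43.8% in the 7195 joined regions of 10 to 50 kb that held all 6 lists, and 40.9% in the genome. The density of CpG was 15.1, 12.9 and 10.02 per kb in the same order. Single domains ranged from 35.9% to 62.7% GC with a median of 44.7%. These figures describe the regions, since no test treats regions as replicates.

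The 1162 domains spanned 111.8 Mb, 3.84% of the sequenced bases and 25.9% of the length of all joined H3K27me3 regions. Their median width was 75.5 kb and the quartiles were 60.3 and 112.6 kb. There were 362 domains of 100 kb or more and 57 of 200 kb or more. The narrowest were 50019, 50111 and 50197 bp wide, and the widest regions that missed the limit were 49998, 49981 and 49961 bp, so the limit fell within a continuous distribution.

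How much of a domain each list covered moved with a value that the peak caller estimates for each library. This is the fragment length d, to which each read is extended and which stands in the file header. In 3 libraries it was long, with 256 bp for the first DMSO library, 265 bp for the first doxycycline library and 280 bp for the second. In the 3 others it hardly exceeded the 101 bp of a read, with 112 bp and 105 bp for DMSO replicates 2 and 3, and 108 bp for the third doxycycline library. The libraries are called long-d and short-d below for this estimate alone, and whether a short d was the true fragment length or a wrong estimate was not tested. Estimates for the 24 libraries of other marks ran from 205 to 278 bp. Coverage of the summed domain length was 95.4%, 98.1% and 94.6% in the 3 long-d libraries, in the order above, and 57.2%, 49.8% and 54.6% in the 3 short-d ones. In 1161 of 1162 domains every short-d library lay below every long-d one. The rate of redundant reads in the headers also differed, at 4%, 3% and 7% in the long-d libraries and 7%, 19% and 25% in the short-d ones. Its part in the coverage was not tested.

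**Figure D1:**
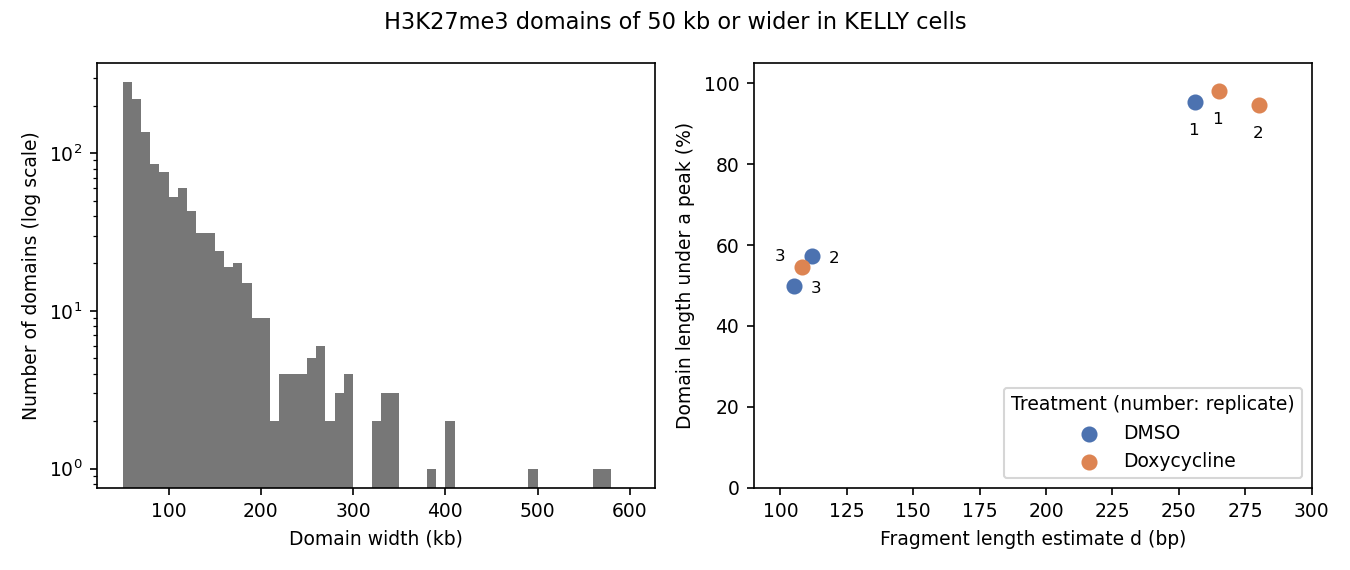
Left, the number of domains (log scale) by width in kb, in bins of 10 kb, falling from 50 kb to 574.861 kb. Right, the share of the summed domain length under an H3K27me3 peak against the fragment length estimate d, 1 point per library, with 3 libraries near 100 bp at 49.8 to 57.2% and 3 above 250 bp at 94.6 to 98.1%.

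The short-d lists broke a domain into pieces. The median number of peaks per domain was 3, 2 and 3 in the long-d libraries and 20, 28 and 28 in the short-d ones. Single peaks of 50 kb or more numbered 722, 961 and 706 in the former, in the order above, against 42, 5 and 10 in the latter. Bases under a peak of all 6 lists made up 32.5% of the domain length, or 36.4 Mb, and 13.3% of the length of the 10 to 50 kb regions. A single stretch of 50 kb or more under all 6 lists was found in 4 domains, and one of 10 kb or more in 122. Built from the 3 long-d lists alone, the definition gave 1158 domains, and from the 3 short-d lists alone it gave 70, which met 57 of the 1162.

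The pieces that all lists shared were richer in GC. Domain bases under a peak of all 6 lists had 50.3% GC and 22.8 CpG per kb. Domain bases that no short-d list covered had 41.4% GC and 9.21 CpG per kb. Across the 1162 domains, GC content and the mean coverage of the short-d lists had a Pearson correlation of 0.57 (Spearman 0.54), and that of the long-d lists 0.42 (Spearman 0.46), where all points share the same libraries. The part of GC content in the difference between the libraries was not tested.

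Coverage of the domains by H3K27me3 was then compared between the treatments. It was 95.4%, 57.2% and 49.8% in DMSO and 98.1%, 94.6% and 54.6% in doxycycline, or 67.4% ± 24.5 and 82.5% ± 24.1 (SD, n = 3 each). The groups overlapped, since each held both kinds of library. The means differed by 15.0 percentage points, and by 1.07 points within kinds of library. No test is given, since these lists defined the domains and each group mixed long and short d. No domain had all 3 doxycycline libraries above all 3 DMSO libraries, or the reverse, whereas over all 16369 regions with 6 lists these shares were 0.501% and 0.00611%. Since DMSO held 1 long-d library and doxycycline 2, a domain whose coverage follows d cannot separate the treatments, and the count does not bear on whether H3K27me3 changed. The calling depth, the smaller of the treated and input read numbers, was also lower in doxycycline, at 57.0 to 63.4 M reads, than in DMSO, at 72.0 to 81.1 M.

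The widest domain, chr17:48242039-48816899 (574.9 kb), held the whole HOXB cluster. HOX genes encode homeobox factors that give positional identity along the body axis. The list coverage was 99.0%, 78.6% and 73.5% in DMSO and 99.8%, 98.5% and 79.5% in doxycycline. The starts of HOXB1 to HOXB9, HOXB13, PRAC1, PRAC2 and SKAP1, an adaptor of T-cell signalling, lay inside, and a stretch of 55.3 kb lay under all 6 lists without a break. Promoters of all 10 HOXB genes had H3K27me3 in all 6 libraries and H3K27ac in none. At the outermost starts used here, HOXB13 alone among them had H3K4me3, in 3 of 3 DMSO and 2 of 3 doxycycline libraries. A further H3K4me3 peak lay inside the HOXB7 gene in all 6 libraries. In DMSO replicate 1 it ran from 81.9 to 82.6 kb from the lowest base of the cluster's genes, whereas the HOXB7 start counted lies at 105.0 kb.

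The HOXA cluster lay in the fifth widest domain, chr7:27017679-27420626 (402.9 kb), which also held EVX1, a homeobox gene next to the cluster. Coverage was 97.0%, 72.5% and 67.5% in DMSO and 99.2%, 97.6% and 72.1% in doxycycline. All 11 HOXA promoters had H3K27me3 in all 6 libraries and none had H3K27ac. HOXA4 and HOXA13 were among those that were bivalent, with H3K4me3 in all 6 libraries as well.

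The HOXC cluster was divided. Its domain, chr12:53881113-53995128 (114.0 kb), held the starts of HOXC13, HOXC12, HOXC11, HOXC10, HOXC6 and HOXC9 and ended at HOXC9, with coverage of 98.6%, 74.8% and 72.5% in DMSO and 99.99%, 99.7% and 70.5% in doxycycline. Beyond the end, HOXC8, HOXC4 and HOXC5 had no H3K27me3 peak and had H3K4me3 and H3K27ac in all 6 libraries. HOXC9, whose promoter window reaches across the end, had all 3 marks in all 6 libraries. The HOXC6 start used here is its outermost annotated one, so its class holds for that start only.

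No domain reached the HOXD cluster. Of its 9 genes, 5 had no H3K27me3 peak at the promoter in any library and 6 had H3K27ac in all 6. HOXD10 had H3K27me3 and H3K4me3 in all 6 libraries, with H3K27ac in 0 of 3 DMSO and 3 of 3 doxycycline libraries, a pattern of 0.12% of all protein-coding genes. The H3K27ac peak lay over the neighbouring HOXD11 start and ended 15.28 to 15.38 kb from the lowest base of the cluster in doxycycline and 12.97 to 14.72 kb from it in DMSO. The HOXD10 start lies at 16.07 kb, so the peak entered only the edge of its window. In all, 27 of the 39 HOX genes started in a domain and 8 had no H3K27me3 at the promoter. Of all protein-coding genes, 6.04% started in a domain and 14083 of 19970 had no H3K27me3 at the promoter.

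**Figure D2:**
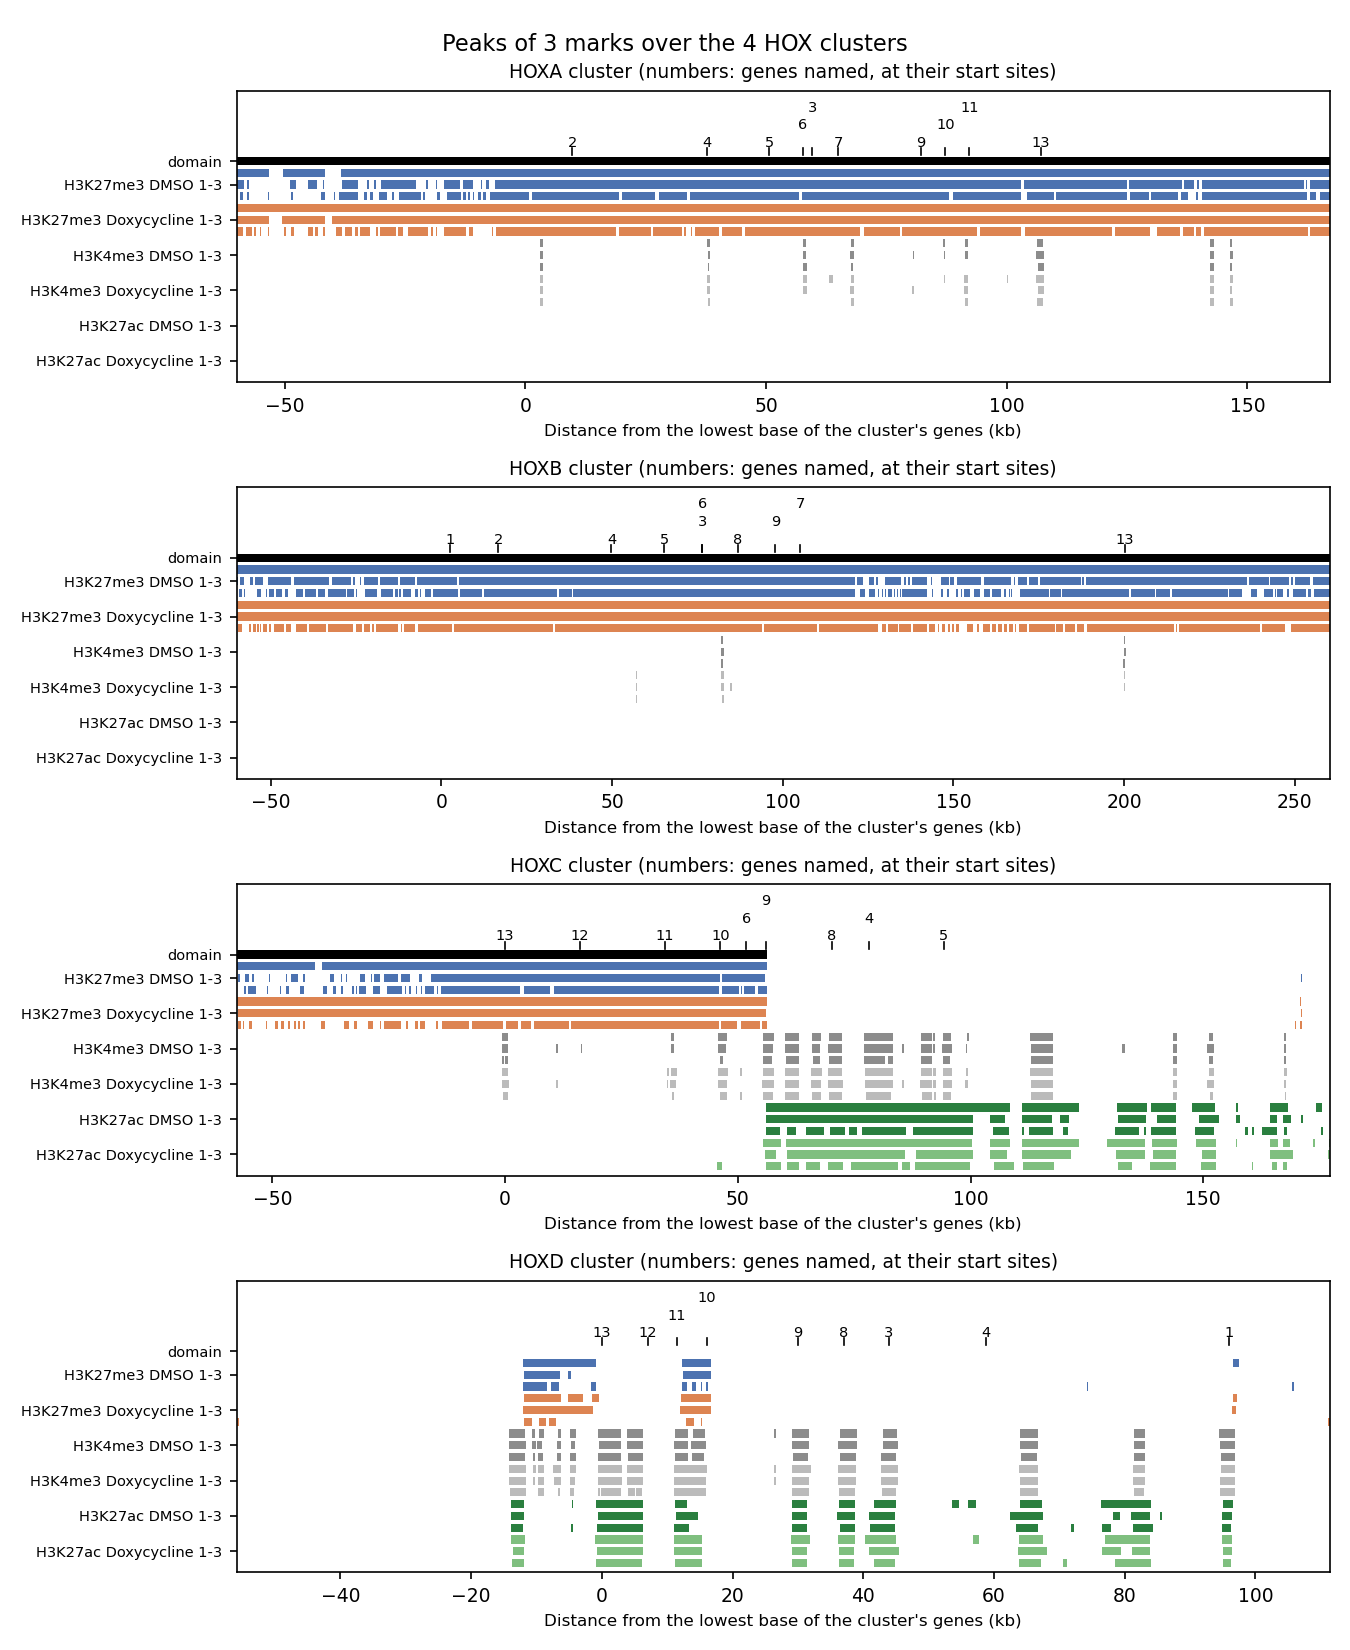
Peaks over the 4 HOX clusters, with distance in kb from the lowest base of the cluster's genes on the horizontal axis and 1 row per library (H3K27me3 blue in DMSO and orange in doxycycline, H3K4me3 grey, H3K27ac green, replicates 1 to 3 from top to bottom); black bars are domains and numbers mark the starts of genes, not all of which are labelled. Domains cover HOXA and HOXB, the HOXC domain ends where H3K27ac begins, and HOXD has no domain.

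The other wide domains differed in gene content. The second widest, chr20:56522612-57089236 (566.6 kb), held TFAP2C, a transcription factor of trophoblast and germ cells, with 99.0%, 90.2% and 75.3% coverage in DMSO and 99.8%, 99.7% and 85.2% in doxycycline. The third, chr1:2978080-3470323 (492.2 kb), held PRDM16, a zinc finger regulator of brown fat and stem cells, at 99.4%, 94.3% and 88.2% and at 99.99%, 99.2% and 90.7%. This was the most evenly covered of the 10 widest, with 84.6% of its length under all 6 lists and an unbroken stretch of 70.0 kb. The fourth, chr12:7620795-8029160 (408.4 kb), held the pluripotency genes NANOG, DPPA3 and GDF3 beside the glucose transporter gene SLC2A3, at 98.8%, 77.6% and 62.5% and at 99.7%, 98.4% and 74.5%.

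The sixth widest, chr17:79319447-79705242 (385.8 kb), held a single protein-coding start, that of RBFOX3, which encodes the neuronal splicing factor NeuN. It was covered to 99.0%, 93.0% and 81.7% in DMSO and 99.7%, 98.6% and 88.0% in doxycycline. The domain of FLT1, a receptor for vascular endothelial growth factor, at chr13:28299733-28646521 (346.8 kb), was the least evenly covered of the 10, at 97.9%, 53.2% and 42.4% and at 99.6%, 97.4% and 42.5%, with 18.6% of its length under all 6 lists. The remaining 3 were a domain of 349.2 kb with ENTHD1 and GRAP2, one of 345.6 kb with PRAMEF genes, LRRC38 and PDPN, and one of 338.0 kb, chr7:156227843-156565825, that met no protein-coding gene. PRAMEF genes are near-identical copies, so their part of that domain is uncertain.

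Gene content was counted by the annotated start of each gene. Of 19970 protein-coding genes, 1207 (6.04%) started in a domain, beside 1132 long non-coding RNA genes. No protein-coding gene started in 515 domains (44.3%), 1 in 384 (33.0%), and 5 or more in 39. Of the 515, 219 lay inside or across the body of a protein-coding gene, and 59 domains met no annotated gene of any kind. Centromeres and duplicated sequence were not marked, so the counts without genes include any domains there. Built from the short-d lists alone, the domains held 114 protein-coding starts.

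Families of developmental regulators were then counted against the 6.04% of all protein-coding genes. Genes of a family that lie in 1 cluster share a domain, so the counts are not of independent genes, and no test was made. Outside HOX, 42 of 121 homeobox genes (34.7%) started in 38 domains. A similar number, 39 (32.2%), started in a region of 10 to 50 kb, where 8.14% of all protein-coding genes did. Among the 42 in domains were NKX2-1, a factor of lung and thyroid, PDX1, of pancreas, CDX2, of intestine, NKX2-5, of heart, and OTX2, of forebrain. The domain of CDX2 (61.6 kb) was covered to 97.0%, 68.4% and 68.1% in DMSO and 100%, 97.6% and 65.0% in doxycycline. That of NKX2-5 (124.7 kb) was covered to 100%, 83.1% and 75.2% and to 99.0%, 99.0% and 76.9%.

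Of the PAX genes, 3 of 9 started in a domain (PAX3, PAX6 and PAX1) and the other 6 in a region of 10 to 50 kb. The domain counts were 5 of 19 for SOX genes, 4 of 16 for T-box genes, 7 of 51 for forkhead genes, 7 of 41 for developmental bHLH genes and 7 of 20 for developmental zinc finger genes. In regions of 10 to 50 kb the counts were 3, 4, 17, 11 and 7 in the same order. TBXT, the brachyury gene of mesoderm, and TBX5, a heart factor, were among the T-box genes in domains. OLIG1 and OLIG2, factors of oligodendrocytes, shared a domain of 251.1 kb. Among GATA genes, GATA6 and GATA5, factors of endoderm and heart, started in domains, whereas 3 of the 6 genes had no H3K27me3 at the promoter, among them GATA3. Ligand families were nearer the domain share of all genes, with 2 of 19 WNT, 1 of 22 FGF and 2 of 20 BMP and GDF genes. In regions of 10 to 50 kb, 8 WNT, 2 FGF and 4 BMP and GDF genes started. Those without an H3K27me3 peak at the promoter in any library numbered 4, 11 and 9 in the same order. Of all protein-coding genes, 14083 of 19970 had no such peak.

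**Figure D3:**
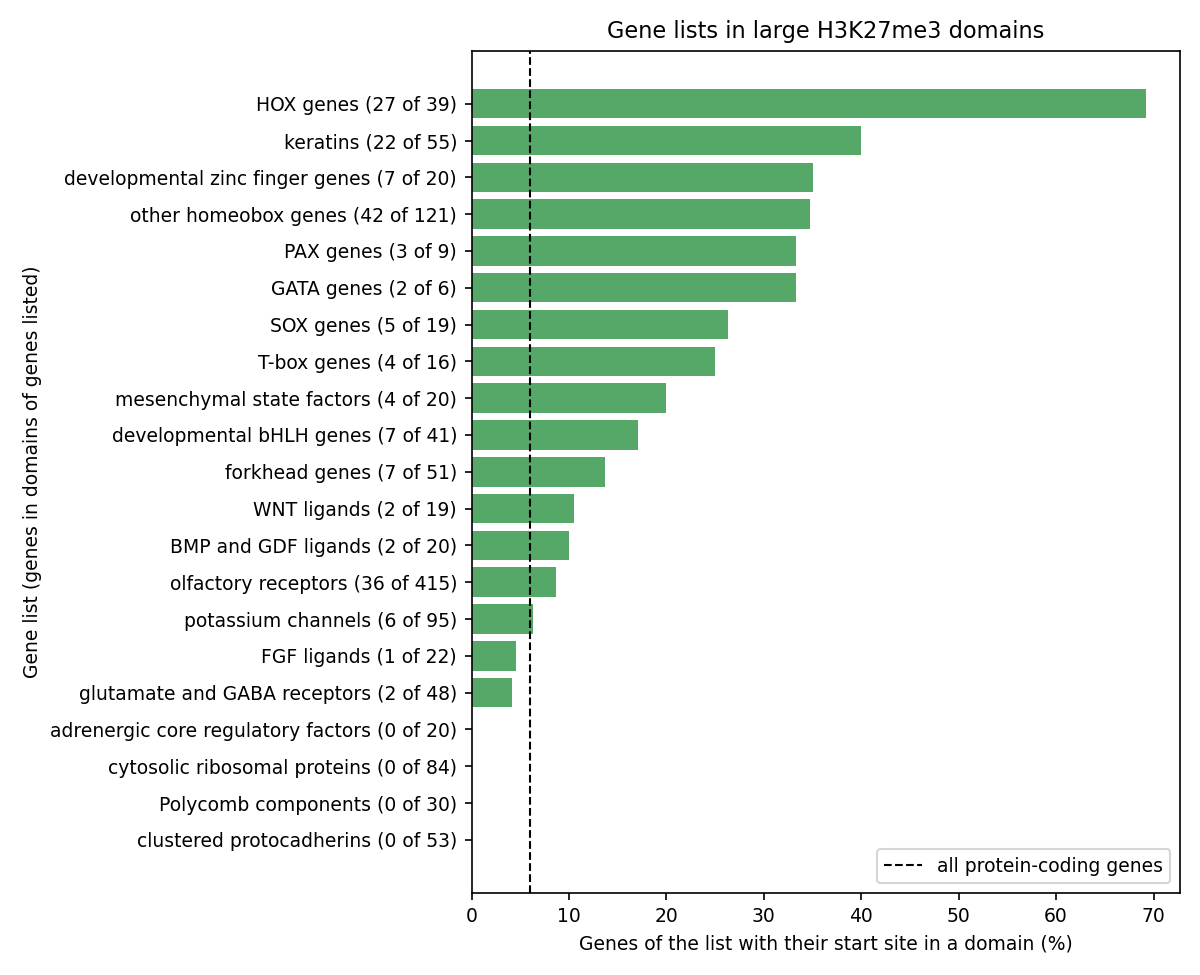
Percent of the genes of each list that start in a domain, with the numbers in brackets and the share of all protein-coding genes, 6.04%, as a dashed line. HOX genes reach 69.2% and keratins 40.0%, and 4 lists are at 0.

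Keratin genes, which encode intermediate filaments of epithelia, gave 22 of 55 genes (40.0%) in 6 domains. KRT8 and KRT18, keratins of simple epithelia, started in a domain of 52.8 kb and were the 2 with H3K4me3 in all 6 libraries. Their promoter windows overlap, so a peak can enter both. The KRT8 start is its outermost annotated one, and the gene reaches out of the domain. KRT5, KRT6A and KRT1, keratins of stratified epithelia, had no H3K4me3 or H3K27ac in any library. Olfactory receptor genes gave 36 of 415 (8.67%) and potassium channel genes 6 of 95 (6.32%), near the 6.04% of all protein-coding genes. None of 53 clustered protocadherins started in a domain. Glutamate and GABA receptor subunits gave 2 of 48, GABRD and GRIN2B. In regions of 10 to 50 kb started 10 keratin, 56 olfactory receptor (13.5%), 15 potassium channel (15.8%) and 7 receptor subunit genes (14.6%). No clustered protocadherin started there, and 8.14% of all protein-coding genes did.

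No gene of the adrenergic core list lay in a domain. All 20 of these genes, among them HAND2, GATA3, ISL1 and MYCN, lacked H3K27me3 at the promoter in all 6 libraries. Most genes did: of all protein-coding genes, 14083 of 19970 lacked it in all 6 libraries, and 6.04% started in a domain. Of the 20 factors listed for the mesenchymal state, 8 also lacked H3K27me3 at the promoter in all 6 libraries, and 4 started in a domain. Among those 4, the EGR3 domain (148.4 kb) was covered to 97.4%, 63.8% and 32.4% in DMSO and 100.0%, 95.9% and 33.6% in doxycycline. EGR3, a zinc finger factor, was bivalent in all 6 libraries. RUNX1, a factor of blood cells, started in a domain of 70.6 kb, and NOTCH2, a Notch receptor gene, in one of 184.0 kb. None of the 84 cytosolic ribosomal protein genes or the 30 Polycomb genes started in a domain, and 80 and 22 of them lacked H3K27me3 at the promoter.

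Promoters inside domains rarely carried H3K27ac. They carried the H3K4 marks more often than H3K27ac, but less often than promoters elsewhere did. H3K27me3 reached the promoter of 1112 of the 1207 genes (92.1%) in all 6 libraries, a mark that the definition used. H3K27ac was present in all 6 libraries at 28 (2.32%), against 67.1% of the 17138 genes outside domains and outside 10 to 50 kb regions and 3.02% of the genes in 10 to 50 kb regions. H3K4me3 was present in all 6 at 274 (22.7%), against 71.7% and 33.7% in the same order. H3K4me1 was present in all 6 at 356 (29.5%), against 50.4% and 37.2%. It was absent from all 6 at 583 (48.3%), against 20.6% and 43.8%. H3K4me2 was present in all 6 at 286 (23.7%), against 71.1% and 34.8%. It was absent from all 6 at 624 (51.7%), against 21.7% and 47.7%. Bivalent promoters, with H3K4me3 and H3K27me3 in all 6 libraries, numbered 262 (21.7%). They numbered 504 (31.0%) of the 1625 genes that started in regions of 10 to 50 kb and 628 (3.66%) elsewhere. A further 738 domain genes had H3K27me3 in all 6 libraries and H3K4me3 in none. This held for 649 of the 1625 genes and for 163 of the 17138 elsewhere. Of the listed factors, FOXD2, a forkhead gene, had H3K27me3, H3K4me3 and H3K27ac in all 6 libraries.

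The number of domain promoters with a mark overlapped between the treatments for all 4 active marks. For H3K4me3 it was 348, 353 and 307 genes in DMSO and 364, 349 and 301 in doxycycline, so the groups overlapped. For H3K27ac it was 44, 34 and 34 in DMSO and 47, 38 and 39 in doxycycline. For H3K4me2 it was 446, 361 and 301 in DMSO and 576, 379 and 413 in doxycycline, where doxycycline replicate 1 stood highest. For H3K4me1 it was 528, 470 and 429 and at 565, 494 and 477.

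A few domain promoters had a mark called in every library of a single treatment. Peaks in doxycycline alone were found at 8 domain genes for H3K4me1, 1 for H3K4me2, 1 for H3K4me3 and 2 for H3K27ac. Among all protein-coding genes the shares with such a pattern were 0.155%, 0.0451%, 0.0501% and 0.12%, and among domain genes they were 0.663%, 0.0829%, 0.0829% and 0.166%. Peaks in DMSO alone were found at 1 domain gene, for H3K27ac, against 0.341%, 0%, 0.0751% and 0.185% of all genes for the marks in the same order. With 3 libraries per group and presence judged at a threshold, no test was made of single genes.

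These genes are named after their values were seen. H3K27ac was called in doxycycline alone at ISG15, an interferon-stimulated gene, and at HES4, a Notch target, whose starts lie 0.966 kb apart, so the windows overlap and a peak can enter both. Their domain of 113.4 kb was covered to 98.9%, 95.7% and 80.4% in DMSO and 100.0%, 99.9% and 89.1% in doxycycline, and both genes had H3K27me3 and H3K4me3 in all 6 libraries. H3K4me2 was called in doxycycline alone at IRF8, an interferon regulatory factor of myeloid cells, and H3K4me3 at IFNL4, an interferon lambda gene. H3K27ac was called in DMSO alone at OR1F1, an olfactory receptor gene. H3K4me1 was called in doxycycline alone at ACY3, GJB6, H3-7, KLK7, OBP2B, PABPN1L, TPSD1 and VSX1.

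Active marks were then measured along the full length of the domains, with coverage over the same lists in regions of 10 to 50 kb and elsewhere in the genome. H3K27ac covered 0.144% ± 0.0307 of the domains (SD over 6 libraries), 0.161% ± 0.0377 of the 10 to 50 kb regions and 4.65% ± 0.630 elsewhere. H3K4me3 covered 0.746% ± 0.118, 1.06% ± 0.140 and 1.43% ± 0.126, and H3K4me2 1.38% ± 0.781, 1.62% ± 0.659 and 2.48% ± 0.785. H3K4me1 covered 3.03% ± 0.644, 3.12% ± 0.495 and 7.11% ± 1.34. All 24 libraries had lower coverage in the domains than elsewhere.

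Between the domains and the 10 to 50 kb regions, H3K4me3 was lower in the domains in 6 of 6 libraries (exact sign-flip permutation, p = 0.031, the smallest possible, 0.0833 adjusted over the 4 marks). H3K4me2 and H3K27ac were lower in 5 of 6 (exact permutation, p = 0.0625, adjusted 0.0833), and H3K4me1 gave p = 0.406. None passed 0.05 after adjustment. Another q limit and another gap moved calls past the threshold. Both settings changed the H3K27me3 regions alone and left the lists of the active marks as they were. With H3K27me3 peaks of q 0.001 or lower the adjusted exact permutation p was 0.031 for all 4 marks. With gaps of up to 1 kb joined it was 0.0417 for H3K4me2, H3K4me3 and H3K27ac. All libraries share 1 cell line.

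**Figure D4:**
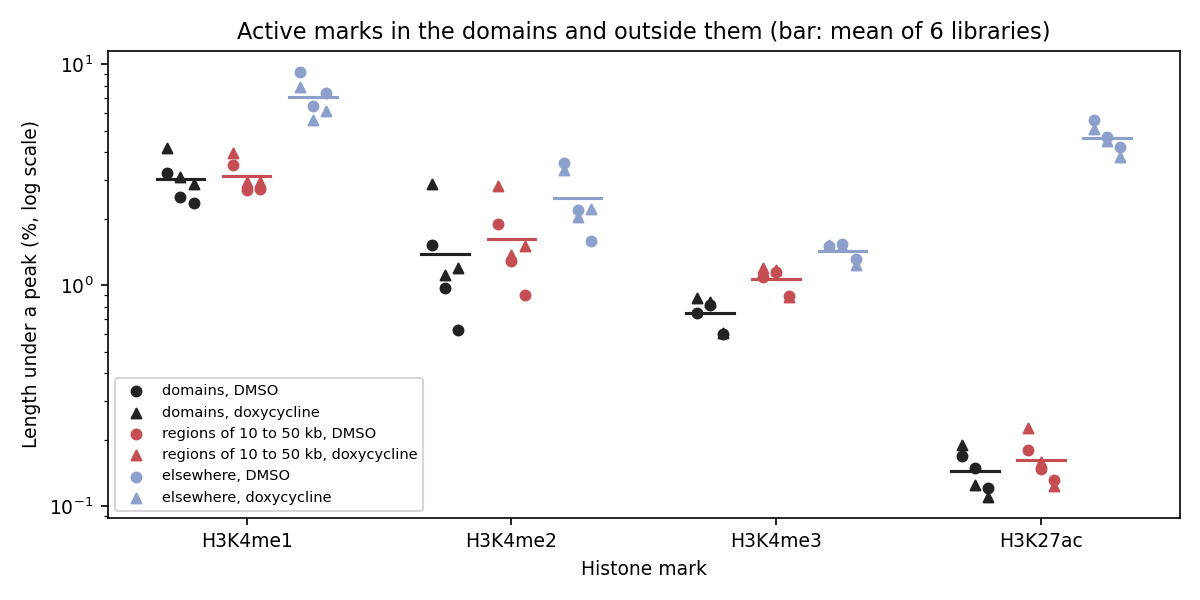
Percent of length under a peak of each active mark (log scale) in domains, in H3K27me3 regions of 10 to 50 kb and elsewhere, 1 point per library, with a bar at the mean of 6. H3K27ac in domains lies between 0.110% and 0.189%, against 3.79% to 5.57% elsewhere.

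Most domains nevertheless held some active mark. A peak of H3K4me1 was found in all 6 libraries in 666 domains (57.3%), of H3K4me2 in 493 (42.4%), of H3K4me3 in 452 (38.9%) and of H3K27ac in 73 (6.28%). In the 10 to 50 kb regions the shares were 19.9%, 15.7%, 14.4% and 1.81% in the same order. These shares count a region with any peak and take no account of its width, so they are not a trait of the domains as such. No library of H3K27ac had a peak in 922 domains (79.3%). No peak of the 4 marks was found in any library in 115 (9.90%).

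Between treatments, H3K4me1 covered 3.23%, 2.51% and 2.36% of the domains in DMSO and 4.16%, 3.08% and 2.86% in doxycycline, a difference of 0.668 points. The groups overlapped (exact permutation, p = 0.3, adjusted 0.625 over the 5 marks), and the difference was 0.271 without doxycycline replicate 1. Between libraries of the same number doxycycline was higher in 3 of 3 pairs, by 0.931, 0.564 and 0.509 points, a mean of 0.668 ± 0.229 (SD). H3K4me2 covered 1.53%, 0.968% and 0.626% in DMSO and 2.86%, 1.11% and 1.19% in doxycycline, where doxycycline replicate 1 alone stood above all DMSO libraries. The difference was 0.681 points (exact permutation, p = 0.4, adjusted 0.625), and 0.113 without doxycycline replicate 1. The difference was 0.0526 points for H3K4me3 (exact permutation, p = 0.5, adjusted 0.625), and -0.0075 without DMSO replicate 3. It was -0.00447 for H3K27ac (exact permutation, p = 0.9, adjusted 0.9), and turned to 0.0111 without doxycycline replicate 3, to 0.0068 without DMSO replicate 1 and to 0.00384 without doxycycline replicate 2. Doxycycline was higher in 3 of 3 same-numbered pairs for H3K4me2 and H3K4me3 as well. With 3 libraries per group no difference could have passed 0.05, since the smallest p is 0.1 without pairing and 0.25 with it, so the tests leave these differences undecided.

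The lists also differed in total length, so the share of each list's own length that fell in domains was computed, a measure added after the data were seen. For H3K4me1 it was 1.43%, 1.58% and 1.30% in DMSO and 2.11%, 2.21% and 1.89% in doxycycline, with all doxycycline libraries above all DMSO ones. For H3K4me2 it was 1.72%, 1.78% and 1.59% in DMSO and 3.34%, 2.17% and 2.15% in doxycycline, again with no overlap. Both gave the smallest p the design allows (exact permutation, p = 0.1, adjusted 0.25 over the 5 marks). The shares overlapped for H3K4me3 (exact permutation, p = 0.3) and H3K27ac (p = 0.9). In the 10 to 50 kb regions the shares of H3K4me1 and H3K4me2 separated in the same way, at 2.07% ± 0.134 against 2.65% ± 0.114 and 2.97% ± 0.163 against 3.79% ± 0.446 (SD, n = 3, exact permutation, p = 0.1 each, adjusted 0.167). H3K27ac also separated there, at 0.175% ± 0.00345 against 0.206% ± 0.0337 (exact permutation, p = 0.1, adjusted 0.167). No test compared the domains with these regions in this measure. Calling depth separated the treatments in the same way, and its part in these shares was not tested.

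Domains were spread unevenly over the chromosomes. Their share of the sequenced bases was highest on chromosome 19, at 15.8% in 89 domains, followed by chromosomes 17 (8.56%), 16 (8.12%) and 20 (7.71%). It was lowest on chromosomes 4 (0.761%), X (0.843%) and 2 (1.25%). Chromosome 19 also had the most protein-coding genes per Mb, at 25.3, and the highest GC content, at 47.9%. Over the 23 chromosomes the share had a Pearson correlation of 0.84 with gene density (Spearman 0.69) and of 0.80 with GC content (Spearman 0.72), as a description. On chromosome 21, 38 of 220 protein-coding genes (17.3%) started in a domain, the highest share of any chromosome, and on chromosome 2 32 of 1247 (2.57%). Within 5 Mb of a chromosome end lay 210 domains (18.1%), 12.0% of the 10 to 50 kb regions and 7.59% of the genome.

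**Figure D5:**
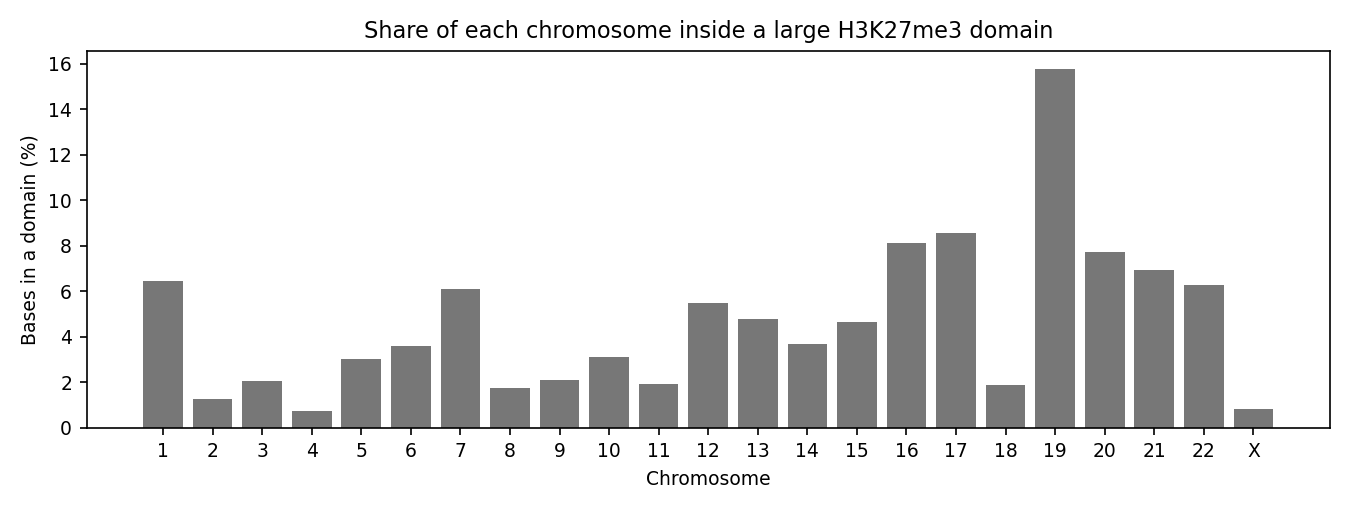
Percent of the sequenced bases of each chromosome that lie in a domain. Chromosome 19 stands at 15.8% and chromosomes 4 and X are under 1%.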

How the data were processed

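Peaks from ChIP-seq of KELLY cells for 5 histone marks, 3 libraries per mark and treatment, were analysed. Among the 34 labelled samples, 4 inputs entered only through the calls. Groups and replicate numbers come from the labels, which name no separate cultures, so p-values measure the spread between these libraries. The authors aligned reads to hg38 and called peaks for each library against an input with MACS2 2.1.1.20160309. Per the file headers, H3K27me3, H3K4me1 and H3K27ac were called in broad mode (q 0.05, linked at 0.1) and H3K4me2 and H3K4me3 in narrow mode (p 1e-05), with reads taken as single-ended, and replicates 1 and 3 of a treatment show inputs of equal read totals. The deposited pileup is a coverage signal, the deposited fold enrichment is a ratio to the local input, and the −log10 q-value is that of the authors' caller. Only the position of a peak and its −log10 q-value entered the results here. The caller scales to the smaller of treated and input reads (57.0 to 81.1 M), and a shorter fragment length estimate narrows the pileup, which can split wide regions.

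Intervals on chromosomes 1 to 22 and X were joined where they shared 1 bp (3.64% of H3K27me3 peaks lay on other sequences). Genes come from GENCODE release 44 of hg38, with 1 start per gene, its outermost annotated one. Coverage was compared by exact two-sided permutation over libraries and adjusted by Benjamini-Hochberg. Python 3.11.15, numpy 2.4.6, pandas 2.3.3 and scipy 1.17.1 were used. The functions were checked against bedtools 2.31.1 and tested on simulated data. The members, gene lists and tests were chosen with earlier results of these data known. Same-numbered libraries were checked for shared deviations over the domains. Their correlations for replicates 1, 2 and 3 were 0.644, 0.216 and 0.687 for H3K4me1, 0.787, 0.202 and 0.725 for H3K4me2 and 0.251, 0.528 and 0.768 for H3K4me3, so these numbers were taken as pairs. They were 0.897, -0.579 and 0.740 for H3K27me3 and 0.657, -0.393 and 0.766 for H3K27ac, which were not. The pairing comes from the data, not from the labels. The planned test of H3K27me3 coverage is not given, since it would use the lists that defined the domains. Alternatives were q of 0.001 or lower for H3K27me3 peaks, widths of 25 and 100 kb, gaps of 1 kb joined, and autosomes alone. Others were 5 Mb around MYCN left out, each list covering 10% or more, whole gene bodies, libraries left out, a replicate block and kinds of fragment length. Domains of the short-d lists alone, genes of each kind of list alone and shares of list length were added after the data were seen. The named items were the 10 widest domains, those next to the limit, the HOX domains, those that separate the treatments (none did), and listed adrenergic and marker genes. Members of the other lists and genes with a peak in 1 treatment alone were named after their values were seen. Some members of the gene lists are not reported by name here.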

Additional observations from a re-analysis of the deposited data

How the results depend on the processing

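The number of domains, 1162, ranged from 914 without doxycycline replicate 1 to 1162 without DMSO replicate 2 when libraries were left out. It was 3028 at 25 kb, 362 at 100 kb and 70 from the short-d lists alone, and stayed within 1.5 times under the other settings. Protein-coding starts, 1207, were 1919, 595 and 114 under those 3 settings. The H3K27me3 difference ranged from 6.15 to 28.9 points with libraries left out and was -6.01 points as a share of list length. With each library left out, the difference ranged from 0.271 to 0.933 points for H3K4me1, 0.113 to 0.985 for H3K4me2, -0.0075 to 0.135 for H3K4me3 and -0.0284 to 0.0111 for H3K27ac. The H3K4me3 reversal came without DMSO replicate 3, and those of H3K27ac, at 0.0068, 0.00384 and 0.0111, without DMSO replicate 1, doxycycline replicate 2 and doxycycline replicate 3. H3K27ac also reversed at 25 kb (0.00205), at 100 kb (0.00681) and as a share of list length (0.00448). None of these H3K4 or H3K27ac differences between treatments passed 0.05 under any setting run. None could have with at most 3 libraries per group, where the smallest exact permutation p is 0.1, or 0.25 by sign flips of pairs.

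Domains with all doxycycline libraries above all DMSO ones were 0 in the main count, 1 at 25 kb, and 0 to 459 with a replicate number left out (374 without replicate 1, 0 without replicate 2, 459 without replicate 3); the opposite pattern stayed at 0. Leaving out replicate 1 or 3 leaves unequal kinds of library on the 2 sides. The differences between domains and 10 to 50 kb regions had main values of -0.0842 (H3K4me1), -0.244 (H3K4me2), -0.317 (H3K4me3) and -0.0174 points (H3K27ac). With the H3K27me3 peaks alone limited to q 0.001 or lower, they were -4.67, -2.93, -2.09 and -0.118 and passed 0.05. With 1 kb gaps joined, -0.276 (H3K4me2), -0.326 (H3K4me3) and -0.0269 (H3K27ac) passed too, and at 25 kb H3K4me1 reversed to 0.142. The cause was not tested. With replicate number as a replicate block, exact sign flips gave the same differences (0.668 points for H3K4me1) with p = 0.25 for the 3 H3K4 marks (doxycycline higher in 3 of 3 pairs) and 0.75 for H3K27ac, where 0.25 is the smallest possible. The block changed no call. Peak lists hold no read counts, so the depth behind one domain is unknown, and weak signal under a caller's threshold is not seen.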
